A study of Mus musculus with 10 samples.

Results

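The genes described here encode subunits of the 3 nuclear RNA polymerases and of Mediator in hearts of 6-week-old mice. They were taken by symbol, as every gene of the deposited table whose name begins with Polr1, Polr2 or Polr3 and a letter, or with Med and a digit. The rule found 59 of 24537 genes. Of these, 28 encode polymerase subunits or partners, 30 encode Mediator subunits, and 1, Med9os, is a noncoding transcript that lies opposite Med9. The set was selected on a value of these same data, the lower Polr2a count in iSOD2 hearts, so the difference of Polr2a between genotypes is given as a description with no test, and the other subunits are set beside it.

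Bulk RNA sequencing was done on hearts of 5 control and 5 iSOD2 mice of both sexes and of litters A and B. Control mice had the genotype Rosa26-rtTA2+/-;TRE-SOD2-shRNA-/- and iSOD2 mice Rosa26-rtTA2+/-;TRE-SOD2-shRNA+/-. All mice carried 1 copy of the reverse tetracycline transactivator at Rosa26, a locus active in most cell types, and all were exposed to doxycycline in utero only, so that the hairpin against Sod2 was switched on in iSOD2 embryos and not after. The knockdown was therefore neither specific to the heart nor in force when the hearts were taken. Controls 1, 2 and 3 and iSOD2 mice 7 and 9 were male, controls 4 and 6 and iSOD2 mice 5, 8 and 10 were female. Controls 1 and 2 and iSOD2 mice 7 and 8 came from litter A, the others from litter B.

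Counts over genes ran from 16448091 to 24263086 per library. Sod2 itself, measured after the hairpin had been withdrawn, averaged 10573 ± 588 normalized counts in control hearts against 10781 ± 449 in iSOD2 hearts (SD, n = 5 each, DESeq2 adjusted p 0.806). Markers of ventricular cardiomyocytes, among them Myh6, Tnnt2 and Actc1, took 79090 to 87264 CPM (counts scaled to the library total) in control hearts and 75021 to 85514 in iSOD2 hearts. Hepatocyte transcripts, which a heart should lack, summed to 9.5 to 441 CPM in control hearts and 211 to 926 in iSOD2 hearts, with none of the 7 at 0 in any library. Their mean log2 level was higher in iSOD2 mice by 1.77 (two-sided exact permutation p 0.0317, adjusted over 8 marker lists 0.254). It was 3.99 in control 1 against 7.61 to 9.95 in the other 9 mice. Of the 7 genes, 1 was called between genotypes by DESeq2. The part of these transcripts in the results was not tested. Markers of atrial cardiomyocytes had a mean log2 level of 8.57 in iSOD2 mouse 10 against 3.59 to 5.31 in the other 9 mice. Summed, these 4 genes took 25.1 to 100.1 CPM in control hearts and 30.6 to 374 in iSOD2 hearts, with Sln at 0 in some library, and 2 subunit genes were called with or without iSOD2 mouse 10. The part of these markers was not tested either. In bulk tissue, fewer cells of a type and less RNA per cell cannot be told apart.

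RNA polymerase I makes the large ribosomal RNAs, RNA polymerase II makes messenger RNA, and RNA polymerase III makes transfer RNA, 5S ribosomal RNA and other small RNAs. Each enzyme has its own largest and second-largest subunit, which together form the catalytic centre, and the enzymes share a set of small subunits. Polr2a encodes RPB1, the largest subunit of RNA polymerase II, whose repetitive C-terminal domain is phosphorylated as the enzyme moves from initiation to elongation. Mediator bridges transcription factors and RNA polymerase II through its head, middle and tail modules, and a separable kinase module holds MED12 or MED12L and MED13 or MED13L.

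The sequence before the start site is shown for Polr2a and for Polr2b, the gene of the second-largest subunit, because the counts of these partners in 1 enzyme parted between the genotypes. Each run is the 250 bases before the RefSeq start site on the strand of the gene (GRCm38.p6), at chr11:69758634-69758883 on the minus strand for Polr2a and at chr5:77310234-77310483 on the plus strand for Polr2b. Capitals mark matches to TATAAA (the TATA box), GGGCGG (the GC box), CCAAT (the CCAAT box) and GCGCATGCG (the NRF1 motif), searched on both strands, and no match overlaps another.
Polr2a: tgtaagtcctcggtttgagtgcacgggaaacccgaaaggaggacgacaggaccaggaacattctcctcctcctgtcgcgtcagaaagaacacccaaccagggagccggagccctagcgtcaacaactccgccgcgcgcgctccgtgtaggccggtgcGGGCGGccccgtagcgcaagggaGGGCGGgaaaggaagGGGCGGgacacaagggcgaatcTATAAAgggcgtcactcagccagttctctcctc
Polr2b: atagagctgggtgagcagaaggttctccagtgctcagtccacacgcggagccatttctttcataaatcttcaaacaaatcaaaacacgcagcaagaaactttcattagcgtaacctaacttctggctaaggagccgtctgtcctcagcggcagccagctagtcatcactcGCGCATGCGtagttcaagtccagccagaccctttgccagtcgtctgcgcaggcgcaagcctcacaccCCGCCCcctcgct
The Polr2a run holds GGGCGG at -93 to -88, -70 to -65 and -55 to -50 and TATAAA at -33 to -28, with GC content 62.8%. The Polr2b run holds GCGCATGCG at -80 to -72 and, on the opposite strand, GGGCGG at -13 to -8, with GC content 54.0%. Of the 49 of 59 genes with an entry, 32 had GGGCGG within these bases (65.3%, against 32.7% of 32851 RefSeq promoters), 16 had CCAAT (32.7% against 33.8%), 4 had GCGCATGCG (8.16% against 1.45%) and 4 had TATAAA (8.16% against 12.4%). The TATAAA matches were in Polr2a, Polr2c, Med16 and Med28. A match describes letters and no factor was measured.

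Polr2a (NM_001291068, chromosome 11, 69733999 to 69758633, minus strand) was the gene on which the set was selected. Normalized counts, which are counts scaled for library depth, were 1208, 1261, 1087, 869 and 832 in controls 1, 2, 3, 4 and 6. They were 693, 787, 725, 651 and 512 in iSOD2 mice 5, 7, 8, 9 and 10. Every iSOD2 mouse lay below every control, and the female controls of litter B came closest to the iSOD2 mice. The group means were 1051 ± 194 and 674 ± 103 (SD, n = 5 each), which differ by -0.64 on the log2 scale (SE 0.13). The exons of Polr2a shared no base with another annotated gene.

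Among the 12151 genes averaging 50 or more normalized counts, 11 had a lower log2 fold change than Polr2a. Of the 1494 such genes with at least 6000 bp of exon, none was lower, and their median was -0.09. The difference was -0.71 in litter A and -0.59 in litter B, and -0.72 in males and -0.40 in females. It ran from -0.72 to -0.56 when each mouse was left out in turn, and was -0.56 without iSOD2 mouse 10, which had the lowest count and the high atrial markers. No genotype-by-sex or genotype-by-litter interaction was detected for any of the 59 genes (DESeq2, 0 at an adjusted p of 0.05 and 0 at an unadjusted p under 0.05). Over all genes, 210 of 17725 by sex and 317 of 17721 by litter had an unadjusted p under 0.05. With so few passing, and few mice in each combination, the absence says little about these genes.

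**Figure D1:**
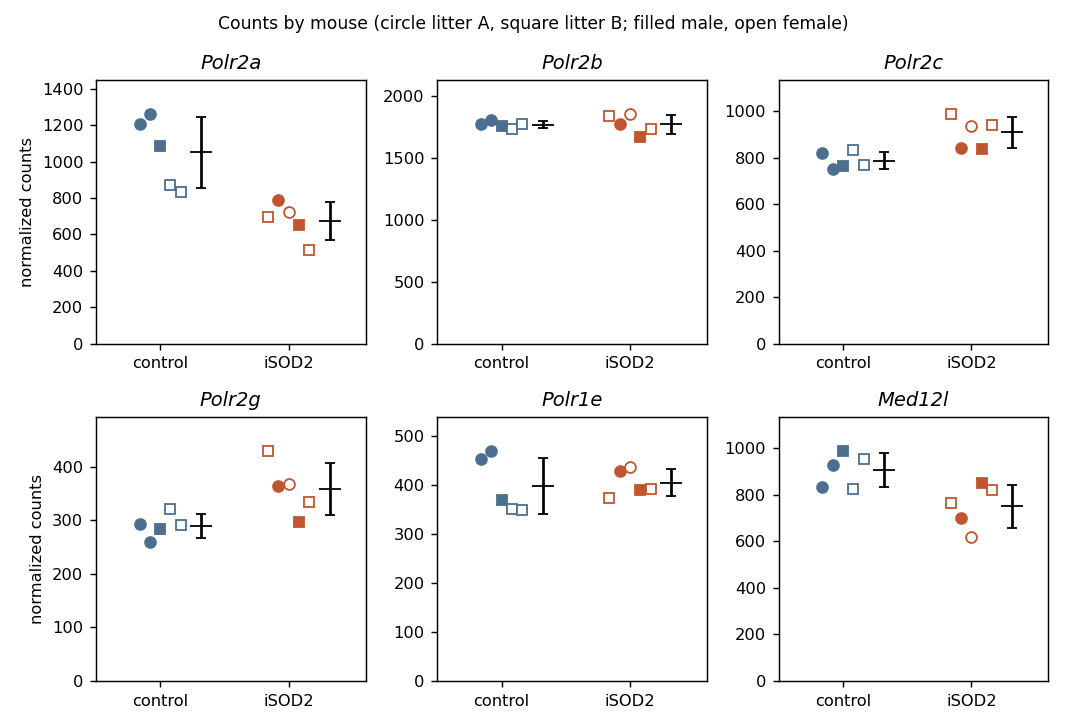
Normalized counts (y axis, from 0) of Polr2a, Polr2b, Polr2c, Polr2g, Polr1e and Med12l in each heart, by genotype (x axis). Circles are litter A, squares litter B, filled symbols males, open symbols females, and bars the mean and SD of 5 mice. Polr2a lay between 832 and 1261 in controls and between 512 and 787 in iSOD2 mice, while Polr2b lay between 1669 and 1857 in all 10.

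Polr2b, which forms the active site together with RPB1, did not pass the test. Its normalized counts were 1774, 1810, 1763, 1736 and 1777 in controls and 1842, 1778, 1857, 1669 and 1736 in iSOD2 mice, so the range of the iSOD2 mice enclosed that of the controls. The difference on the log2 scale was 0.00 (SE 0.05, DESeq2 adjusted p 0.973). Per kb of exon, Polr2a stood at 0.335 ± 0.0586 of the level of Polr2b in control hearts and at 0.214 ± 0.0303 in iSOD2 hearts (SD, n = 5 each). The ratio was 0.385, 0.393, 0.348, 0.283 and 0.265 in controls and 0.213, 0.25, 0.221, 0.220 and 0.166 in iSOD2 mice, so it too separated the genotypes. Exons of Polr2b share 85 bp with Igfbp7 on the opposite strand, and the counting used no strand.

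The other RNA polymerase II genes were Polr2c, Polr2d, Polr2g, Polr2i, Polr2j and Polr2m. With Polr2b, all 7 had a log2 fold change above 0, with a median of 0.13 and a range from 0.00 to 0.31. The log2 count of Polr2a minus the median of these 7 averaged 1.81 ± 0.33 in control hearts and 0.87 ± 0.21 in iSOD2 hearts (SD, n = 5 each), which differ by -0.94. It was -0.77 against their summed level per kb and -0.71 after the trend with exon length was removed from each library. This is a description of the contrast on which Polr2a was selected.

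Polr2c encodes RPB3, which nucleates assembly of the core enzyme. It had 819, 751, 764, 836 and 771 normalized counts in controls and 988, 843, 937, 837 and 943 in iSOD2 mice, so the groups met at control 4 and iSOD2 mouse 9 without overlapping. On the log2 scale it was higher by 0.21 (SE 0.07, DESeq2 adjusted p 0.0364), below the fold that a call required. After the length trend was removed it was 0.14 (DESeq2 adjusted p 0.288). Exons of Polr2c share 413 bp with Dok4 on the opposite strand, and Dok4 stood at 0.11 (DESeq2 adjusted p 0.535).

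Polr2g, which encodes RPB7 of the stalk where new RNA leaves the enzyme, had the highest log2 fold change of the RNA polymerase II genes. Its counts were 293, 260, 283, 322 and 291 in controls and 429, 365, 369, 297 and 334 in iSOD2 mice, and the groups overlapped. The difference was 0.31 (SE 0.10, DESeq2 adjusted p 0.0538), and 0.18 after removal of the length trend (adjusted p 0.485, DESeq2). The 5 subunits that all 3 polymerases share, Polr2e, Polr2f, Polr2h, Polr2k and Polr2l, ran from 0.01 for Polr2h, which had no adjusted p, to 0.27 for Polr2k (SE 0.11, DESeq2 adjusted p 0.140). All 5 lay above 0, and their median moved from 0.13 to -0.01 when the length trend was removed.

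In RNA polymerase I, the largest subunit Polr1a stood at -0.10 (SE 0.06), the second-largest Polr1b at -0.02 (SE 0.06) and Polr1e, which binds initiation factors, at 0.02 (SE 0.10). None passed the test (DESeq2 adjusted p 0.336, 0.879 and 0.930). Polr1c and Polr1d, used by RNA polymerases I and III, stood at 0.10 and 0.06. In RNA polymerase III, the largest subunit Polr3a stood at -0.11 (SE 0.07) and the second-largest Polr3b at -0.02 (SE 0.06), with DESeq2 adjusted p of 0.405 and 0.896.

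Of the other RNA polymerase III genes, those reported here ran from -0.12 for Polr3e (SE 0.08, DESeq2 adjusted p 0.453) to 0.25 for Polr3g (SE 0.17, no adjusted p). Polr3g and Polr3gl encode alternative forms of the same subunit. Polr3gl was the more abundant of the pair, at 12.7 ± 1.36 FPKM (counts per kb of exon, scaled to the library total) against 1.22 ± 0.247 for Polr3g (SD over 10 mice). Polr3g had 71.4, 54.9, 74.0, 86.9 and 64.8 normalized counts in controls and 75.2, 75.6, 108, 74.4 and 84.8 in iSOD2 mice, which overlapped, and Polr3gl stood at 0.11 (SE 0.09, DESeq2 adjusted p 0.539).

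No Mediator gene was called between genotypes among the 24 of 30 that had an adjusted p (DESeq2), against 2.96% of all genes tested. At an unadjusted p under 0.05 there were 6 of 30, against 13.2% of all genes. Med12l, a gene of the kinase module, was called once litter was a covariate, but not by edgeR or with sex as a covariate. The log2 fold changes of the 30 Mediator genes split evenly, 15 above and 15 below 0, around a median of 0.00. Of the head, which contacts RNA polymerase II, 5 of 7 genes were above 0, from -0.01 for Med6 to 0.18 for Med8 (SE 0.10, DESeq2 adjusted p 0.274). Of the middle, 6 of 10 were above 0, from -0.12 for Med14, the scaffold that joins the modules (SE 0.06, DESeq2 adjusted p 0.210), to 0.26 for Med21 (SE 0.12, DESeq2 adjusted p 0.191). Of the tail, which meets transcription factors, 4 of 9 were above 0, from -0.14 for Med25 (SE 0.07, DESeq2 adjusted p 0.262) to 0.14 for Med30. Med15, a tail subunit, had groups that did not overlap, with 506, 530, 539, 510 and 506 counts in controls and 481, 489, 464, 460 and 496 in iSOD2 mice, and stood at -0.12 (SE 0.06, DESeq2 adjusted p 0.283). Med15 is named for this gap, which was noticed in the values.

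In the kinase module, which represses or activates Mediator at different genes, all 4 genes had log2 fold changes below 0, with a median of -0.16. Their exons are long, with a median of 9730.5 bp. Med12l had 835, 928, 986, 826 and 955 normalized counts in controls and 766, 699, 617, 849 and 818 in iSOD2 mice, with iSOD2 mouse 9 inside the control range. It differed by -0.27 (SE 0.09, DESeq2 adjusted p 0.0512). With litter as a covariate it was called, at -0.28 (DESeq2 adjusted p 0.0121). It was not called with sex as a covariate (-0.26, DESeq2 adjusted p 0.102) or by edgeR (-0.27, adjusted p 0.158). With sex and litter together it stood at -0.245, below the fold for a call (DESeq2 adjusted p 0.0280). Med13l stood at -0.18 (SE 0.08), Med13 at -0.14 (SE 0.07) and Med12 at -0.12 (SE 0.06), with DESeq2 adjusted p of 0.143, 0.232 and 0.193. After removal of the length trend the 4 values were -0.17, -0.08, -0.04 and -0.03, with a DESeq2 adjusted p of 0.413 for Med12l. The paralogues differ in level, since Med13 had 21.0 ± 1.52 FPKM and Med13l 8.55 ± 0.759, while Med12 had 6.55 ± 0.387 and Med12l 3.91 ± 0.539 (SD over 10 mice). The module's kinase and cyclin genes, Cdk8, Cdk19 and Ccnc, do not carry the searched names and are counted with the kinases described further on.

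**Figure D2:**
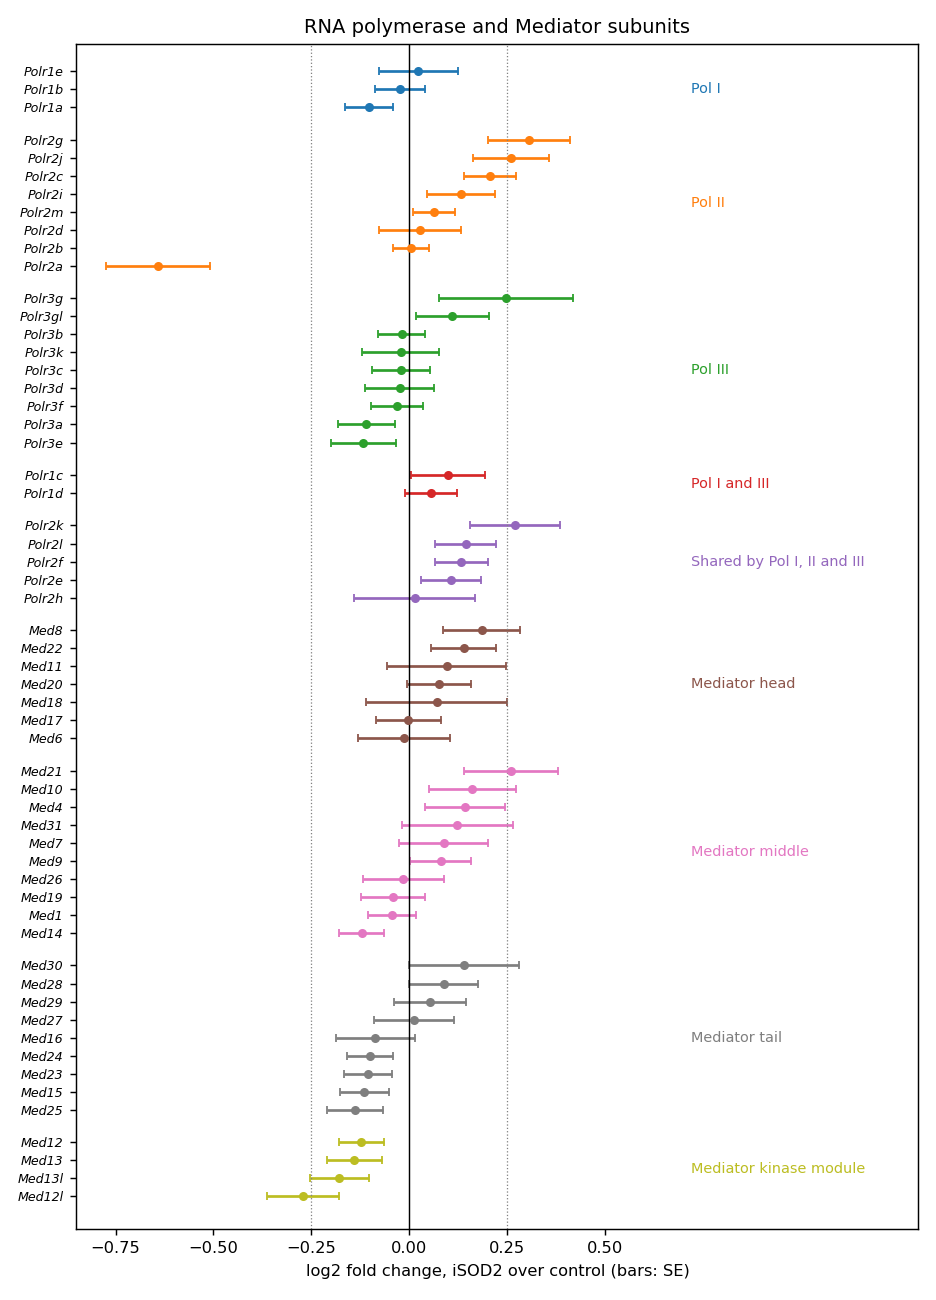
Log2 fold change (x axis, iSOD2 over control) of 57 subunit genes, ordered by complex or module. Points are estimates, bars 1 SE, and dotted lines the fold that a call required. Polr2a stood at -0.64, and the other 56 shown lay between -0.27 and 0.31.

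Counted over the whole set, 2 of the 50 genes with an adjusted p were called, Polr2a among them, with 1 lower and 1 higher, against 2.96% of 9479 genes tested (1.70% lower and 1.27% higher). At any fold, 3 of 50 had an adjusted p of at most 0.05, against 6.09% of all genes tested. At an unadjusted p under 0.05 there were 13 of 59, against 13.2%, and groups did not overlap for 4 of 59, against 3.75%. These counts come from the contrast on which Polr2a was selected and nothing is read from them. The quasi-likelihood test of edgeR called 0 of the 59 and 0 genes in all (lowest adjusted p of any gene 0.0664), with 14 of the 59 and 2718 of all genes at an unadjusted p under 0.05. The 9 genes without an adjusted p, left out by the filter of DESeq2 on low counts, were Med6, Med10, Med11, Med18, Med30, Med31, Polr2h, Polr3g and Med9os, the last with a mean of 3.25 normalized counts.

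Apart from Polr2a, most fold changes ran with exon length. Of the subunit genes under 1000 bp that averaged 50 or more counts, 13 of 13 were above 0, with a median of 0.13, and the median of all 840 such genes was also 0.13. Of those of at least 6000 bp other than Polr2a, 7 of 7 were below 0, from -0.27 to -0.04, with a median of -0.12, against -0.09 over all 1494 such genes. Across the 57 subunit genes without Polr2a, Spearman's rho of log2 fold change with length was -0.74, and -0.47 across all 12151 genes averaging 50 or more counts. Genes of 1 library share its length trend and are not independent replicates.

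The trend itself differed between the libraries of the genotypes. The slope of each library's log2 deviation on log2 exon length averaged 0.033 ± 0.017 in control hearts and -0.033 ± 0.014 in iSOD2 hearts (SD, n = 5 each, two-sided exact permutation p 0.00794, the smallest that 5 against 5 mice allow). Whether the trend arose in the tissue or in the libraries was not tested. With it removed, rho across the 57 was -0.15, the median of the 13 short genes -0.01 and that of the 7 long ones -0.04. Polr2a was at -0.56 with the trend removed, and 43 of the 12151 genes were then lower than Polr2a.

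**Figure D3:**
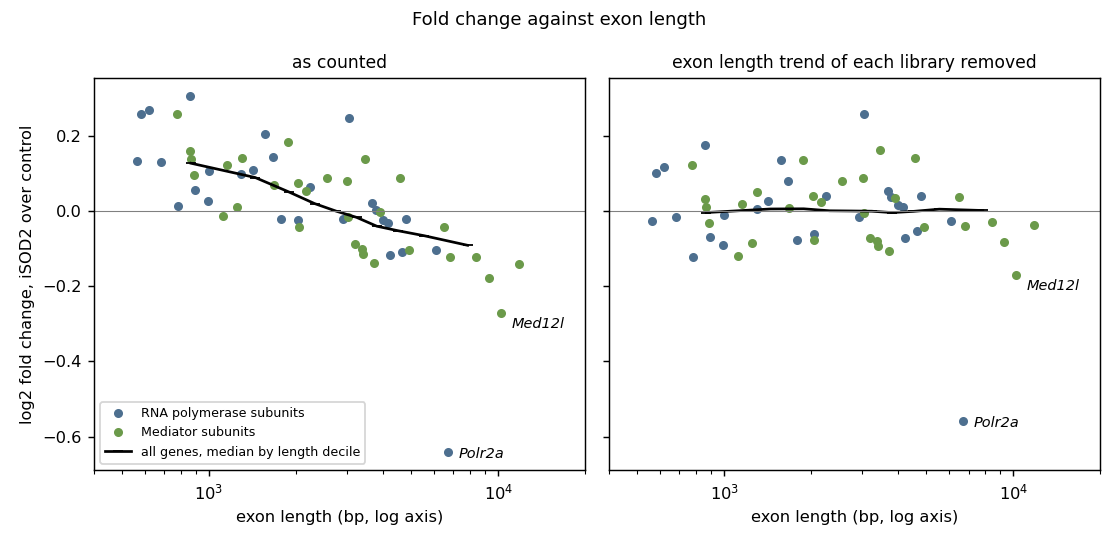
Log2 fold change (y axis, iSOD2 over control) against exon length (x axis, bp, log axis) of subunit genes averaging 50 or more normalized counts, as counted at left and with the length trend of each library removed at right. Points are genes, and the line joins medians of all 12151 genes by length decile. Most points follow the line, which falls from left to right only before removal, and Polr2a stood at -0.64 and -0.56, below the other points on both sides.

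Litter and sex were contrasts that the choice of genes did not use. Between litters, with genotype in the model, 2 of the 58 subunit genes with an adjusted p were called, Polr2a and Polr1e, both lower in litter B, against 3.50% of 15654 genes tested (0.977% lower). Polr2a fell by 0.35 on the log2 scale from litter A to litter B (SE 0.10, DESeq2 adjusted p 0.0108). Controls averaged 1234 ± 37.0 counts in litter A (SD, n = 2) and 929 ± 138 in litter B (SD, n = 3). The iSOD2 mice averaged 756 ± 44.2 in litter A (SD, n = 2) and 619 ± 94.9 in litter B (SD, n = 3). Both litter B means lay below the litter A mean of the same genotype.

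Polr1e separated the litters without overlap. Litter A had 452, 468, 429 and 437 counts, the first pair being controls. Litter B had 369, 352 and 348 counts in controls and 374, 389 and 392 in iSOD2 mice. Polr1e fell by 0.27 from litter A to B (SE 0.07, DESeq2 adjusted p 0.0173). Within litter A both controls were above both iSOD2 mice and within litter B all controls were below all iSOD2 mice, but the genotype-by-litter term of Polr1e had an unadjusted DESeq2 p of 0.229.

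Litter A held 3 males and 1 female and litter B 2 males and 4 females, so litter and sex are partly confounded. With sex added to the model no subunit gene was called between litters, and Polr2a stood at -0.27 (DESeq2 adjusted p 0.0873) and Polr1e at -0.24 (DESeq2 adjusted p 0.154). By edgeR, Polr1e was called (adjusted p 0.0330) and Polr2a was not (adjusted p 0.0656). The litter call of Polr2a was lost without control 1, control 2 or iSOD2 mouse 7, with DESeq2 adjusted p of 0.0678, 0.0730 and 0.0600, and that of Polr1e without control 1, 2, 4 or 6.

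Between sexes, 0 of the 59 genes were called, against 0.483% of 16348 genes tested. At an unadjusted p under 0.05 by DESeq2 there were 4 of the 59, beside 1170 of the 17728 genes in the fit. By edgeR there were 7 of the 59, beside 1503 of 17728. Polr2a averaged 1185 ± 89.0 counts in control males (SD, n = 3), 850 ± 26.5 in control females (SD, n = 2), 719 ± 96.8 in iSOD2 males (SD, n = 2) and 643 ± 115 in iSOD2 females (SD, n = 3). The difference of females from males was -0.32 (SE 0.11, DESeq2 adjusted p 0.209). It was called when iSOD2 mouse 8 or 9 was left out, at -0.38 and -0.41 (DESeq2 adjusted p 0.0425 and 0.0313).

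Levels can be compared between genes as FPKM. On that scale Polr2m was highest, at 70.3 ± 4.13 (SD over 10 mice). Polr2m encodes an RNA polymerase II partner that is not a core subunit, and it lies beside Myzap, a gene of the cardiac intercalated disc, on the same strand. It was followed by Polr2f at 41.4 ± 2.93 and Polr2e at 38.0 ± 3.21, both shared by the 3 enzymes, which lay within their combined spread. Polr2b stood at 22.6 ± 0.877. Polr2a was 39th of the 59, at 7.47 ± 1.16 in control hearts and 4.87 ± 0.655 in iSOD2 hearts (SD, n = 5 each), and was the lowest of the RNA polymerase II genes over all mice. Of the largest subunits, Polr1a was highest, at 17.4 ± 0.942 (SD over 10 mice). Polr3a at 6.55 ± 0.438 and Polr2a at 6.17 ± 1.64 over the same mice lay within their combined spread.

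**Figure D4:**
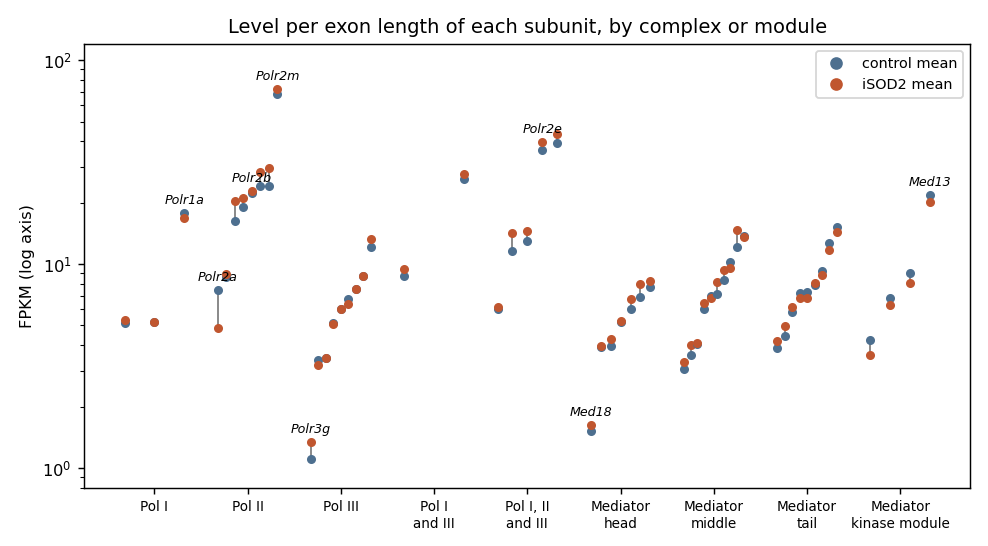
Mean level of 57 subunit genes (y axis, FPKM, log axis) in 5 control and 5 iSOD2 mice, grouped by complex or module (x axis). Grey lines join the means of a gene. Polr2a moved from 7.47 to 4.87, the widest step on this log axis among the RNA polymerase II genes, and Polr2m was highest at 70.3 over all mice.

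Other genes of transcription were taken from 8 lists typed from general knowledge, of which 158 of 168 genes were found and 140 had an adjusted p. Of these, 4 were called, 2 higher and 2 lower, against 2.96% of all genes tested.

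Taf5, a TFIID subunit, had 534, 519, 554, 683 and 587 counts in controls and 831, 676, 693, 714 and 798 in iSOD2 mice. It rose by 0.37 (SE 0.09, DESeq2 adjusted p 0.00402), and by 0.38 without the length trend (DESeq2 adjusted p 0.00466). Gtf2h5, a small TFIIH subunit, rose by 0.29 (SE 0.10, DESeq2 adjusted p 0.0404), and Ccnk, the cyclin partner of CDK12 and CDK13, which phosphorylate the C-terminal domain of RPB1, fell by 0.29 (SE 0.09, DESeq2 adjusted p 0.0337). These calls were weaker than that of Taf5. Without the length trend Gtf2h5 stood at 0.19 (DESeq2 adjusted p 0.370), while Ccnk kept its size, at -0.30 (DESeq2 adjusted p 0.0555). With 1 mouse left out, Gtf2h5 was called in 2 and Ccnk in 4 of 10 fits. None of the 3 was called by edgeR (adjusted p 0.0786 for Taf5).

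By list, 2 of 29 preinitiation factors with an adjusted p were called (Taf5 and Gtf2h5), 1 of 22 kinases and phosphatases of the C-terminal domain (Ccnk) and 1 of 28 elongation factors. Among the other lists there was no call by DESeq2. With an adjusted p they held 14 Integrator subunits, 17 polymerase assembly and turnover factors and 7 RNA polymerase I genes. The last list, with Cd3eap, holds both factors and subunits under older symbols, which the searched names did not find. A further 16 RNA polymerase III factors and 7 factors of mitochondrial transcription had an adjusted p. At an unadjusted p under 0.05 these lists held, in the same order, 1 of 14, 0 of 21, 0 of 10, 2 of 18 and 0 of 10 genes in the fit. The share of all genes was 13.2%. The list medians ran from -0.09 for Integrator to 0.02 for the assembly and turnover factors, beside 0.00 over all genes in the fit. Maf1, the repressor of RNA polymerase III, had 1387, 1375, 1210, 1375 and 1303 counts in controls and 1480, 1608, 1591, 1487 and 1585 in iSOD2 mice, which did not overlap. Its difference of 0.22 (SE 0.05, DESeq2 adjusted p 0.00417) was below the fold for a call. After the length trend was removed, no RNA polymerase III factor, Maf1 included, stood above 0.16. Integrator subunits were below 0 for 12 of 14, with a median of -0.09 and -0.05 after the length trend was removed, and Ints1 was at -0.20 (SE 0.08, DESeq2 adjusted p 0.122). The lowest adjusted p of the 3 lists with none at an unadjusted p under 0.05 belonged to Elob, Cd3eap and Mterf4 (0.326, 0.377 and 0.523 by DESeq2).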

How the data were processed

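Libraries were prepared from total heart RNA with a stranded kit. Per the study's methods and the labels, the authors trimmed reads with Trim Galore, aligned them to mm10 with STAR and summed exon reads with HOMER, keeping 1 transcript per gene and stating no strand option. The deposited values are expected counts in steps of 0.5, not normalized by the authors; the file also gives another column, exon length. Counts were rounded.

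For genes with at least 10 summed counts, DESeq2 1.42.0 (R 4.3.3) gave Wald tests without shrinkage, and a gene was called at a Benjamini-Hochberg adjusted p of at most 0.05 and an absolute log2 fold change above 0.25, the thresholds of the study. Litter and sex were tested with genotype as a covariate. Alternatives were edgeR 4.0.16 quasi-likelihood, TMM scaling, other filters, covariates, each sex or litter alone, removal of trends with exon length (lowess, span 0.3) or GC content, and leaving out each mouse. The scripts were tested on simulated data. Overlaps came from GENCODE and promoters from RefSeq, both of GRCm38, the assembly of mm10. Libraries held 16448091 to 24263086 counts, and the SD between mice includes counting error.

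Genes named were the largest and second-largest subunits, those with an adjusted p of at most 0.05 in any contrast, the extremes of each complex or module, paralogue pairs, and of each pathway list up to 3 called genes or that of lowest adjusted p. Others are named for their level, their overlap or their place in a group. The genes, lists and tests were chosen with earlier results of these data known. Some results under this rule are not reported here.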

Additional observations from a re-analysis of the deposited data

Results flagged for a closer look

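Polr3b, the second-largest subunit of RNA polymerase III, had 546 normalized counts in iSOD2 mouse 10, far from the other 4 iSOD2 mice, which lay between 596 and 612. The same heart had the highest mean log2 level of atrial cardiomyocyte markers, 8.57 against 3.59 to 5.31 in the other 9 mice, whose part in the value was not tested. Of 50 groups of 5 mice examined for such a sample this was the only case, and chance alone would give about 2.5.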

How the results depend on the processing

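Over 24 alternatives, 695 values of the 25 named subunit genes and 4 called pathway genes were recomputed, of which 613 kept their side of the threshold (35 of them with a change of sign and no call), 72 lost a call, 10 gained one and 0 reversed as a call. All genes called between genotypes, 281, became 0 with edgeR, 577 without the fold threshold, 133 without the exon length trend, 118 without the length and GC trends, 121 in litter A, 65 in litter B, 151 in males and 96 in females, and 166 to 488 when 1 mouse was left out. The highest of these, 488, came without control 4, and the lowest, 166, without control 2; the counts were 186 without control 1 and 185 without control 3. Subunit genes called between genotypes, 2, became 0 with edgeR, 1 in litter A, 1 in litter B and 0 in females, and 2 to 5 when 1 mouse was left out. Without control 4 the calls added were Med12l, Polr2g and Polr2k (5 in all), and without iSOD2 mouse 9 they were Med12l and Polr2g (4 in all). Med12l also passed with TMM scaling (DESeq2 adjusted p 0.0498), with litter as a covariate (DESeq2 adjusted p 0.0121) and without control 1. Subunit genes called between litters, 2, became 1 with edgeR and 0 with sex added, and 0 to 3 when 1 mouse was left out, with 0 without control 1 or 2, 1 without control 4, control 6 or iSOD2 mouse 7, and Med16 added without iSOD2 mouse 5. Between sexes, 0 subunit genes were called, and 0 to 1 when 1 mouse was left out. The log2 fold change of Polr2a between genotypes, on which it was selected, ran from -0.72 to -0.40, the latter in females alone. That range and its calls counted above come from the libraries it was chosen on and are a description. Fits within 1 litter or sex had fewer mice; the cause of the other shifts was not tested. Low counts limit Polr3g, Med18 and Med9os, which had no adjusted p. The labels pair no control with a given iSOD2 mouse, so mice were not matched one to one. Both litters held both genotypes, and litter was fitted as a covariate in some of the alternatives, alone or with sex.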
